A study of Rattus norvegicus with 12 samples.

Results

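Messenger RNA of 10 rat genes was read in 12 livers procured after circulatory death. The genes belong to the pathway that makes and loads the peptides shown by major histocompatibility complex (MHC) class I molecules. The genes were chosen by name: Psmb8, Psmb9, Psmb10, Psme1 and Psme2 of the immunoproteasome, the peptide loading genes Tap1, Tap2 and Tapbp, the light chain gene B2m, and Nlrc5, the activator of class I genes. Each symbol stands on 1 row of the deposited table, so these are 10 of 33744 genes. All 12 livers came from male Sprague Dawley rats and had 30 min of warm ischemia in the body after cardiac arrest, with 3 livers and 1 library per liver in each of 4 groups. HOPE 1 h livers then had 3 h of cold storage and 1 h of hypothermic machine perfusion with an oxygenated solution. HMP 1 h livers had the same 3 h of cold storage and 1 h of hypothermic machine perfusion without oxygenation. SCS 4 h livers were stored cold without flow for 4 h, and WI 30 min livers had warm ischemia alone. No group was free of warm ischemia, and tissue was taken at the end of preservation. The comparisons ask how the preservation method, and oxygen during perfusion, bear on the transcripts of an ischemic liver.

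The proteasome is the barrel that cuts worn or foreign proteins into peptides. Interferon gamma makes cells replace its catalytic subunits Psmb5, Psmb6 and Psmb7 with Psmb8 (LMP7), Psmb9 (LMP2) and Psmb10 (MECL-1), which favours peptides that fit class I molecules, and Psme1 and Psme2 form the PA28 cap that opens the barrel. The transporter Tap1 with Tap2 carries the peptides into the endoplasmic reticulum, Tapbp (tapasin) holds the transporter beside an empty class I molecule, and B2m (beta-2 microglobulin) completes the molecule that goes to the cell surface. Nlrc5 switches on many of these genes together. In liver the pathway runs in hepatocytes and in Kupffer, endothelial and immune cells, and in bulk tissue fewer cells of a type and less RNA per cell cannot be told apart.

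On Rnor_6.0, the build of the deposited table, 5 of the 10 genes lie on chromosome 20. Psmb9 (ENSRNOG00000000459, minus strand, 3973420 to 3978845) and Tap1 (ENSRNOG00000000457, plus strand, 3979035 to 3989669) point away from each other with 189 bases between them. Psmb8 (ENSRNOG00000000456, plus strand, 3990613 to 3993769) comes next, and Tap2 (ENSRNOG00000046031, minus strand, 5198258 to 5212624) and Tapbp (ENSRNOG00000029500, minus strand, 5468078 to 5476193) lie further on. Psmb10 (ENSRNOG00000019494, 37909546 to 37912027) and Nlrc5 (ENSRNOG00000048222, 10905542 to 10976396) are on chromosome 19. Psme1 (ENSRNOG00000019041, 34256071 to 34258947) and Psme2 (ENSRNOG00000019246, 34265557 to 34269851) are on chromosome 15, and B2m (ENSRNOG00000017123, 114087287 to 114093309) is on chromosome 3. All are annotated as protein coding.

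The start sites of most of these genes share a sequence. The interferon-stimulated response element, searched as GAAANNGAAA on both strands (TTTCNNTTTC where the opposite strand is read), stood in the window of 250 bases before to 50 after the gene start in 7 of the 9 members with a RefSeq promoter (GRCr8), and in 3.92% of all 33469 promoters of that length. Nlrc5 had no entry, and Psmb9 and Psme1 had no whole match to these letters. The Psme1 window ends in tttcgctt, the first letters of the element, so a match across the window edge could not be seen. The stretches around the element are printed because 7 genes with different levels carry it, with the element in capitals and each sequence on the strand of its gene.

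Psmb8, chr20:4657006-4657055, minus strand: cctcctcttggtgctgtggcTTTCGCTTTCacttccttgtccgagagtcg
Psmb10, chr19:50743280-50743385, minus strand: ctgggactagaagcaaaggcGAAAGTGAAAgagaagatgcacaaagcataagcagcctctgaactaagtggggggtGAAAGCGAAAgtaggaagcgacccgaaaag
Psme2, chr15:33052775-33052824, minus strand: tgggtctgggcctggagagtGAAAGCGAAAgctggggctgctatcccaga
Tap1, chr20:4668635-4668684, minus strand: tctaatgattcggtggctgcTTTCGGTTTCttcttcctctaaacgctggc
Tap2, chr20:4652308-4652357, minus strand: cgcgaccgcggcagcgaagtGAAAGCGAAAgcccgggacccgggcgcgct
Tapbp, chr20:4967868-4967923, minus strand: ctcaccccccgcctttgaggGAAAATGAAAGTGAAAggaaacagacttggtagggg
B2m, chr3:129549160-129549209, plus strand: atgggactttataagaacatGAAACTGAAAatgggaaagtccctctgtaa

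Psmb10 held 2 separate elements and Tapbp 2 that overlap, and the letters GAAAGCGAAA recurred in Psmb10, Psme2 and Tap2, and in Psmb8 on the opposite strand. In Psmb8 the element spans the gene start, from base -4 to base 6, and in B2m it lies farthest away, from -150 to -141. The gamma-activated site, searched as TTCNNNGAA (its own reverse complement), was found in 1 of the 9 members, Psmb8, and in 8.87% of all promoters. CCAAT, on either strand, was found in 3 (Psmb8, Psmb9 and B2m), and in 37.5% of all promoters. No element overlapped a different one. The windows of Tap1 and Psmb9 share 44 bases. These are matches of letters, and binding was not measured.

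Total counts were 15262961 to 18343167 per liver, and 13687 genes passed the filter on low counts and were tested. The mitochondrial share of the counts was 18.7% in HMP liver 1, against 4.79% to 10.2% elsewhere. HMP liver 1 and HOPE liver 3 also stood apart in the summed level of markers of other cells. The 11 Kupffer and macrophage markers in the table summed to 1233 CPM (counts scaled to library size) in HOPE liver 3 and 2007 CPM in HMP liver 1, against 537 to 840 CPM in the other 10 livers. The 9 sinusoidal endothelial markers summed to 1287 and 1149 CPM in these livers, against 493 to 842 CPM, and the 10 T and NK cell markers to 12.7 and 22.6 CPM, against 5.25 to 8.91 CPM. The 8 hepatocyte markers summed to 124138 to 198517 CPM in the 12 livers, and no marker list held a gene at 0 in every liver.

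Of the 10 genes, 9 passed the filter. Per gene length (deposited FPKM), B2m had by far the highest level of the 10, at 502 to 783 FPKM in the 12 livers. Psme2 (24.3 to 35.2 FPKM), Tapbp (16.1 to 26.6 FPKM) and Psmb10 (11.2 to 24.6 FPKM) followed, with ranges that overlap. Psmb9 (5.74 to 15.1 FPKM), Psmb8 (3.92 to 12.1 FPKM) and Tap1 (3.07 to 9.74 FPKM) overlapped each other in the same way. Tap2 (0.834 to 4.28 FPKM) and Nlrc5 (0.496 to 2.09 FPKM) were the lowest of those tested. The constitutive subunits were above their inducible counterparts in every liver except HMP liver 2, where Psmb7 was at 18.6 FPKM and Psmb10 at 23.0 FPKM. They were at 47.3 to 109 FPKM for Psmb5, 63.5 to 112 FPKM for Psmb6 and 18.6 to 57.4 FPKM for Psmb7.

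**Figure D1:**
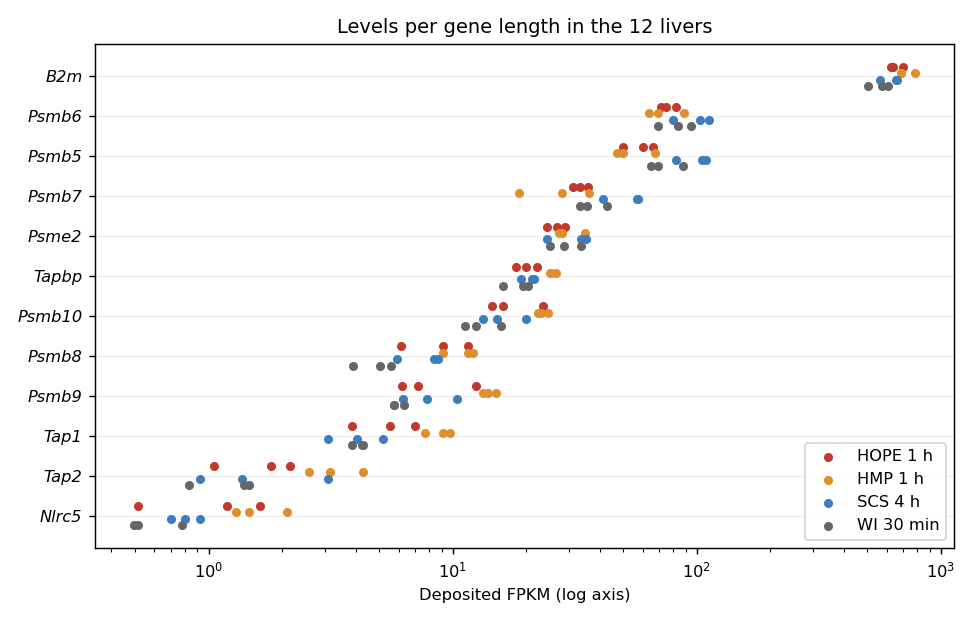
Deposited FPKM (log axis) of the 9 tested genes and of Psmb5, Psmb6 and Psmb7, 1 point per liver, coloured by group. B2m lies at 502 to 783 FPKM and Nlrc5 at 0.496 to 2.09 FPKM, and in Psmb9 and Tap1 the 3 HMP 1 h livers lie right of the other 9.

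Psme1, the other PA28 subunit, was close to absent from the table. Its counts were 0, 0 and 0 in HOPE 1 h livers, 0, 2 and 0 in HMP 1 h, 3, 3 and 1 in SCS 4 h, and 1, 1 and 1 in WI 30 min, 12 in all. The gene Emc9 on the opposite strand covers 2574 of its 2877 bases (89.5%) and had 402 counts, and whether the counting used strand was not stated in the sources at hand. Psme1 was not tested, and no fold is given.

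The catalytic subunits define the immunoproteasome. Psmb8 was at 12.6, 19.3 and 24.1 CPM in HOPE 1 h livers, 23.8, 25.0 and 18.6 CPM in HMP 1 h, 17.4, 17.9 and 12.3 CPM in SCS 4 h, and 8.07, 10.3 and 11.6 CPM in WI 30 min. All 9 cold-preserved livers were above the 3 WI 30 min livers, and the perfused and SCS 4 h livers overlapped through HOPE liver 1. Psmb9 was at 9.34, 11.3 and 19.3 CPM in HOPE 1 h livers, 21.3, 22.9 and 19.9 CPM in HMP 1 h, 15.9, 11.9 and 9.62 CPM in SCS 4 h, and 8.69, 9.50 and 8.76 CPM in WI 30 min. The 3 HMP 1 h livers were above the other 9, and only HOPE liver 3 came near them. Psmb10 was at 14.4, 16.3 and 23.8 CPM in HOPE 1 h, 24.6, 22.9 and 22.0 CPM in HMP 1 h, 19.96, 13.2 and 15.3 CPM in SCS 4 h, and 15.6, 12.2 and 11.2 CPM in WI 30 min. Again HOPE liver 3 lay with the HMP 1 h livers, while HOPE livers 1 and 2 lay with the unperfused ones.

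Psme2, the cap subunit with enough reads, did not follow them. It was at 35.6, 33.3 and 39.1 CPM in HOPE 1 h livers, 37.5, 36.4 and 45.8 CPM in HMP 1 h, 44.9, 47.1 and 32.8 CPM in SCS 4 h, and 44.4, 37.7 and 33.6 CPM in WI 30 min. The 4 groups overlapped, and no pair of groups had a log2 fold change beyond 0.21 in size. The perfused livers (HOPE 1 h and HMP 1 h) against the unperfused livers (SCS 4 h and WI 30 min) gave -0.08 (standard error 0.114).

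Of the transporter, Tap1 was at 22.9, 16.4 and 29.3 CPM in HOPE 1 h livers, 37.9, 31.7 and 39.8 CPM in HMP 1 h, 21.5, 12.7 and 16.9 CPM in SCS 4 h, and 17.6, 15.7 and 17.8 CPM in WI 30 min. All HMP 1 h livers were above the other 9 livers, and HOPE liver 2 was within the range of the unperfused livers. Tap2 was at 4.96, 2.96 and 6.03 CPM in HOPE 1 h, 8.68, 11.7 and 7.04 CPM in HMP 1 h, 8.52, 2.53 and 3.80 CPM in SCS 4 h, and 4.00, 3.81 and 2.30 CPM in WI 30 min. Only SCS liver 1 reached the HMP 1 h livers. A second gene, LOC103689996 (chromosome 20, plus strand, 3995544 to 4009587), is also annotated as antigen peptide transporter 2 in the table and lies next to Psmb8, where RefSeq places Tap2 on GRCr8. It was at 1.08, 1.01 and 1.21 CPM in HOPE 1 h, 5.88, 2.12 and 3.03 CPM in HMP 1 h, 1.40, 0.903 and 1.96 CPM in SCS 4 h, and 1.47, 1.000 and 2.96 CPM in WI 30 min. With 1121 counts on Tap2 and 403 on the second gene, reads of 1 transporter gene may be split between them, so the level of Tap2 is uncertain.

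Tapbp was at 45.4, 38.3 and 41.7 CPM in HOPE 1 h livers, 51.9, 54.6 and 50.9 CPM in HMP 1 h, 43.5, 44.4 and 39.7 CPM in SCS 4 h, and 41.5, 39.3 and 33.1 CPM in WI 30 min. The HMP 1 h livers stood above the other 9, whose groups overlapped. An antisense gene, AC128962.1, overlaps Tapbp, and without strand its reads cannot be told apart from those of Tapbp. B2m was at 1159, 1173 and 1291 CPM in HOPE 1 h, 1258, 1254 and 1414 CPM in HMP 1 h, 1033, 1196 and 1222 CPM in SCS 4 h, and 913, 1091 and 1054 CPM in WI 30 min. Every perfused liver was above every WI 30 min liver. Nlrc5 was at 6.78, 3.02 and 9.50 CPM in HOPE 1 h, 8.40, 7.43 and 11.8 CPM in HMP 1 h, 4.60, 5.30 and 4.06 CPM in SCS 4 h, and 2.93, 2.81 and 4.47 CPM in WI 30 min. HOPE livers 1 and 3 were above all unperfused livers and HOPE liver 2 was among the lowest.

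**Figure D2:**
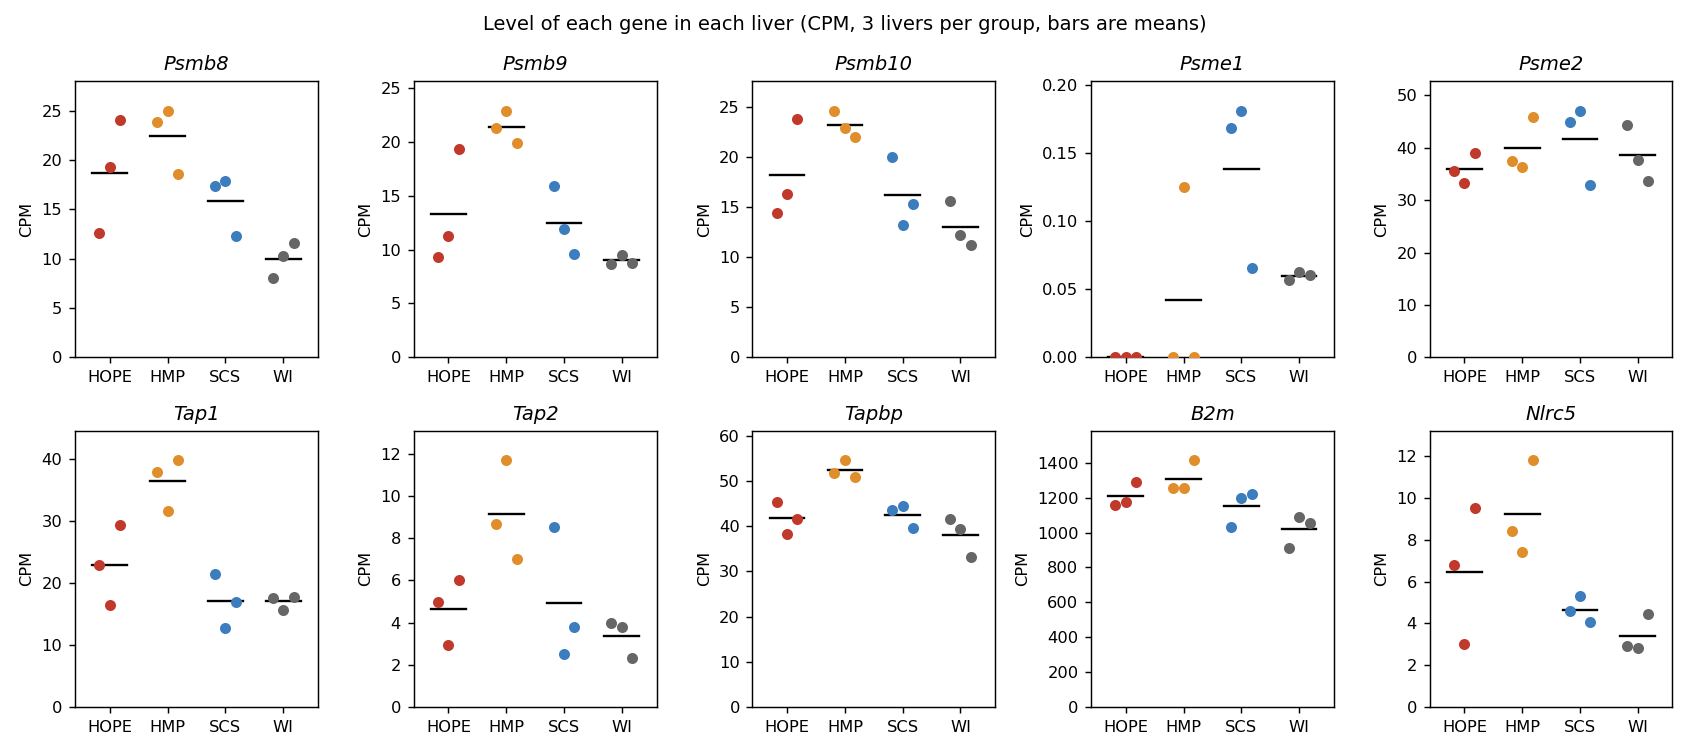
CPM of the 10 genes in each liver, 1 panel per gene, with 3 livers per group (HOPE 1 h, HMP 1 h, SCS 4 h, WI 30 min) and bars at the group means. The HMP 1 h livers have the highest mean in 8 panels, Psme2 shows no such order (means of 36.0, 39.9, 41.6 and 38.6 CPM), and Psme1 stays under 0.2 CPM.

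Of the 6 pairs of groups, HMP 1 h against WI 30 min gave the largest log2 fold change for 8 of the 9 tested genes, with Tap1 equal to 2 decimals in HMP 1 h against SCS 4 h. The log2 fold change was 1.25 for Psmb9 (standard error 0.252, 2.38-fold), 1.17 for Psmb8 (standard error 0.244, 2.25-fold) and 1.10 for Tap1 (standard error 0.222, 2.14-fold). It was 1.44 for both Nlrc5 and Tap2 (standard errors 0.366 and 0.430), 0.83 for Psmb10, 0.47 for Tapbp and 0.36 for B2m, and 0.05 for Psme2. The median of the 9 was 1.10, against 0.03 over all tested genes. By edgeR's quasi-likelihood test with Benjamini-Hochberg adjustment over all 13687 genes, 0 of the 9 were called at an adjusted p under 0.05, as were 0% of all genes, with adjusted p = 0.0921 for Psmb8, Psmb9 and Tap1. An unadjusted p under 0.05 with a higher level was reached by 8 of the 9, and by 7.24% of all genes. DESeq2 called 7 of the 9 (all but Psme2 and B2m) and 2.85% of all genes. In 8 of the 9 every HMP 1 h liver was above every WI 30 min liver, which holds for 7.57% of all genes.

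HMP 1 h against SCS 4 h, which differ in the last hour, gave smaller differences for the catalytic subunits and the same for Tap1. The log2 fold change of Tap1 was 1.10 (standard error 0.222), with mean levels of 36.5 ± 4.26 CPM in HMP 1 h and 17.0 ± 4.39 CPM in SCS 4 h (SD, n = 3). It was 0.99 for Nlrc5, 0.88 for Tap2, 0.77 for Psmb9, 0.52 for Psmb10, 0.50 for Psmb8, 0.30 for Tapbp, 0.19 for B2m and -0.06 for Psme2. By edgeR 0 of the 9 were called (0% of all genes), and the adjusted p was 0.0880 for Tap1. An unadjusted p under 0.05 with a higher level was reached by 5 (Psmb9, Psmb10, Tap1, Tapbp and Nlrc5), and by 5.93% of all genes. DESeq2 called Tap1 alone (1 of 9) and 3.16% of all genes. The livers did not overlap, with HMP 1 h higher, in 7 of the 9 and in 7.29% of all genes.

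HOPE 1 h against HMP 1 h, the comparison of perfusion with and without oxygen, had a negative log2 fold change for all 9 genes, with a median of -0.35, against -0.01 over all tested genes. Tap2 was at -0.97 (standard error 0.421), Psmb9 at -0.68 (standard error 0.247), Tap1 at -0.67 (standard error 0.220) and Tapbp at -0.33 (standard error 0.115). In these 4 every HOPE 1 h liver was below every HMP 1 h liver, which holds for 4.89% of all genes. The same 4 had an unadjusted p under 0.05 with a lower level, as had 3.52% of all genes. B2m was at -0.12, Psme2 at -0.15, Psmb8 at -0.27, Psmb10 at -0.35 and Nlrc5 at -0.52, and their livers overlapped. By edgeR 0 of the 9 were called (0% of all genes), and by DESeq2 0 of the 9 (0.102% of all genes). The lowest edgeR adjusted p among the 9 was 0.558, for Tap1.

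HOPE 1 h against WI 30 min had positive log2 fold changes for 8 of the 9 (median 0.47, against 0.02 over all tested genes). Nlrc5 was at 0.92 (standard error 0.364), Psmb8 at 0.90 (standard error 0.243) and Psmb9 at 0.57 (standard error 0.251). EdgeR called 0 of the 9 (0% of all genes) and DESeq2 0 of the 9 (0.679% of all genes). An unadjusted p under 0.05 with a higher level was reached by 4 (Psmb8, Psmb9, Psmb10 and Nlrc5) and by 4.41% of all genes. In 2 of the 9, Psmb8 and B2m, every HOPE 1 h liver was above every WI 30 min liver, as in 8.77% of all genes. Without HOPE liver 3 the log2 fold change was 0.53 for Nlrc5, 0.67 for Psmb8, 0.20 for Psmb9 and 0.24 for Psmb10 (0.48 with all livers).

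HOPE 1 h against SCS 4 h had the median nearest 0 of the 6 pairs. Log2 fold changes lay between -0.21 (Psme2) and 0.47 (Nlrc5), with a median of 0.09 beside 0.04 over all tested genes. By edgeR 0 of the 9 were called (0% of all genes) and 0 of the 9 had an unadjusted p under 0.05 with a higher level (4.04% of all genes). DESeq2 called 0 of the 9 (1.02% of all genes), and in 0 of the 9 was every HOPE 1 h liver above every SCS 4 h liver (8.97% of all genes). Psmb9 was at 0.09 and Psmb10 at 0.17 with all livers and at -0.28 and -0.08 without HOPE liver 3, and Tap2 was at -0.09 with all livers and at 0.56 without SCS liver 1.

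Cold storage alone, SCS 4 h against WI 30 min, gave positive log2 fold changes for 8 of the 9 (median 0.32, against 0.01 over all tested genes). Psmb8 had the largest, 0.67 (standard error 0.244), with 15.9 ± 3.12 CPM in SCS 4 h and 9.99 ± 1.79 CPM in WI 30 min (SD, n = 3). Tap1 was level at 17.0 and 17.1 CPM. By edgeR 0 of the 9 were called (0% of all genes), by DESeq2 0 (0.110% of all genes), and at an unadjusted p under 0.05 with a higher level 1, Psmb8 (2.77% of all genes). In 2, Psmb8 and Psmb9, every SCS 4 h liver was above every WI 30 min liver, as in 7.13% of all genes. Tap2 was at 0.56 with all livers and at -0.09 without SCS liver 1.

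**Figure D3:**
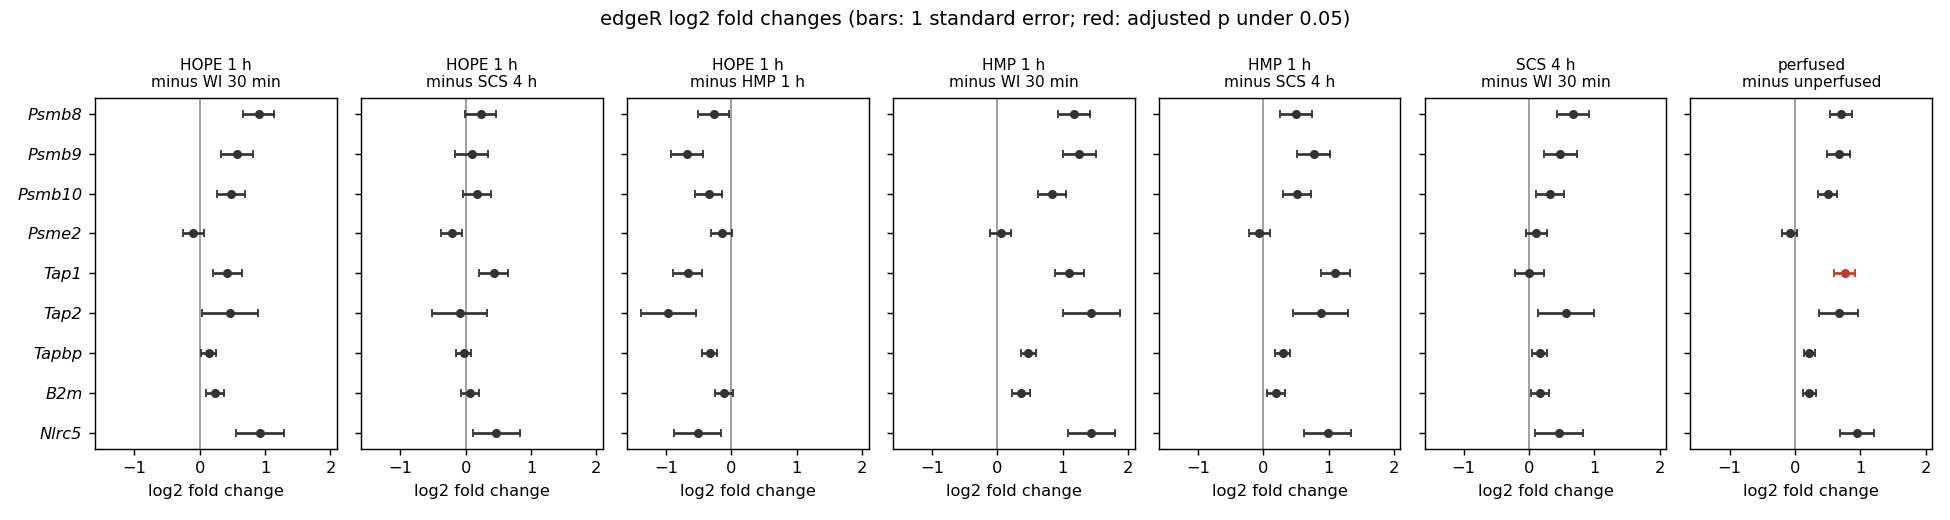
edgeR log2 fold changes (x axis, bars of 1 standard error) of the 9 tested genes in the 6 pairs of groups and in perfused against unperfused livers. HMP 1 h minus WI 30 min reaches 1.44, HOPE 1 h minus HMP 1 h is negative for all 9, and the red point, Tap1 at 0.76, is the value with an adjusted p under 0.05.

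Over the 6 perfused against the 6 unperfused livers, Tap1 rose and was the 1 gene of the 9 that edgeR called, beside 1.02% of all genes (140). Tap1 had 29.7 ± 8.91 CPM in perfused and 17.0 ± 2.87 CPM in unperfused livers (SD, n = 6). Its log2 fold change was 0.76 (1.70-fold), with a standard error of 0.157 and an adjusted p of 0.0457 by edgeR. The group mean was 22.9 CPM in HOPE 1 h livers and 36.5 CPM in HMP 1 h livers, and HOPE liver 2, at 16.4 CPM, overlapped the unperfused livers. The call was lost when any liver other than HOPE liver 2 was left out, with adjusted p of 0.0345 to 0.125 and log2 fold changes of 0.65 to 0.86 over the 12 fits. The other values were 0.95 for Nlrc5 (standard error 0.256, edgeR adjusted p = 0.0990), 0.70 for Psmb8 (edgeR adjusted p = 0.0729), 0.67 for Psmb9 (edgeR adjusted p = 0.0955), 0.67 for Tap2 and 0.50 for Psmb10. Tapbp and B2m were both at 0.22. An unadjusted p under 0.05 with a higher level was reached by 8 of the 9 (all but Psme2) and by 8.82% of all genes. DESeq2 called 5 (Psmb8, Psmb9, Psmb10, Tap1 and Nlrc5) and 5.36% of all genes. The 6 perfused and 6 unperfused livers overlapped in all 9, so in 0 of 9 was every perfused liver above every unperfused liver, beside 0.621% of all genes. The unperfused side holds the WI 30 min livers, which had no cold storage, so cold storage also differs between the sides. The 7 comparisons share livers and are not independent of each other.

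The mean of the 9 genes in a liver (log2 CPM, each gene centred on the 12 livers) gave the order of the livers. It was -0.08, -0.25 and 0.36 in the HOPE 1 h livers, 0.49, 0.50 and 0.50 in HMP 1 h, 0.14, -0.19 and -0.26 in SCS 4 h, and -0.37, -0.39 and -0.44 in WI 30 min. The HMP 1 h livers were nearly equal in this mean, while single genes could differ more (Tap2 at 8.68, 11.7 and 7.04 CPM). HMP liver 1 had the highest sum of Kupffer markers and of mitochondrial transcripts, and HMP livers 2 and 3 had neither. The part of either in the level of HMP liver 1 was not tested. HOPE liver 3, the other liver with high marker sums, was the highest of its group, and the part of those cells in its level was not tested. Without these livers (HMP liver 1, HOPE liver 3), the HMP 1 h against WI 30 min log2 fold changes were 1.26 for Psmb9, 1.13 for Psmb8 and 1.08 for Tap1, and that of Tap1 over perfused livers was 0.64 (edgeR adjusted p = 0.115). Psmb9 was then the 1 of the 9 called between HMP 1 h and WI 30 min (edgeR adjusted p = 0.0396), in a fit that called 46 genes in all.

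Each catalytic subunit was next set beside the constitutive subunit whose place it takes. Psmb8 was at 14.9 ± 2.50% of Psmb5 in HOPE 1 h livers (ratio of FPKM, SD, n = 3), 20.8 ± 6.24% in HMP 1 h, 7.70 ± 0.530% in SCS 4 h and 6.81 ± 2.14% in WI 30 min. The perfused livers, at 12.4% to 24.4%, did not overlap the unperfused livers, at 4.46% to 8.67%. Psmb10 was at 53.4 ± 10.4% of Psmb7 in HOPE 1 h, 91.1 ± 30.8% in HMP 1 h, 31.7 ± 7.29% in SCS 4 h and 35.1 ± 1.50% in WI 30 min. Here too the perfused livers (46.8% to 123%) stood apart from the unperfused ones (23.4% to 36.9%). Psmb9 was at 11.2 ± 3.54% of Psmb6 in HOPE 1 h, 19.6 ± 3.98% in HMP 1 h, 8.23 ± 0.924% in SCS 4 h and 7.30 ± 1.11% in WI 30 min, and the perfused range of 8.24% to 22.0% met the unperfused range of 6.09% to 9.29%. Both sides of a ratio differed in value. In perfused livers the log2 fold change was -0.59 for Psmb5 (edgeR adjusted p = 0.0533), -0.53 for Psmb7 (edgeR adjusted p = 0.115) and -0.26 for Psmb6 (edgeR adjusted p = 0.266). These genes had their highest means in SCS 4 h (86.8, 88.3 and 71.0 CPM), above those in WI 30 min (64.2, 62.8 and 58.9 CPM). Taken singly, each of these subunits overlapped between the perfused and the unperfused livers. How often ratios of other pairs of genes separate the livers was not counted, so the separation has no share to stand beside. The ratios were described and not tested.

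**Figure D4:**
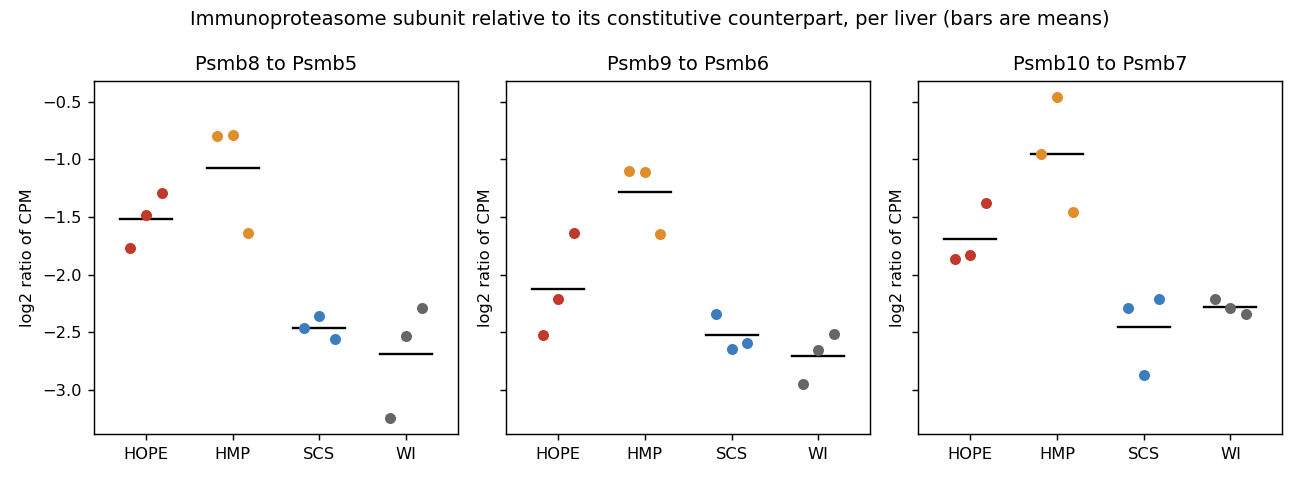
Log2 ratio of the CPM of Psmb8 to Psmb5, Psmb9 to Psmb6 and Psmb10 to Psmb7 in each liver (y axis, not scaled to gene length), by group, with bars at the means. For Psmb8 to Psmb5 the perfused livers lie at -1.77 to -0.79 and the unperfused livers at -3.24 to -2.29.

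The other proteasome genes that were listed had mostly negative values. The 5 constitutive counterparts were Psmb5, Psmb6, Psmb7 and the caps Psme3 and Psme4. In perfused against unperfused livers 1 of them had a positive log2 fold change, and the median was -0.26. EdgeR called 0 (1.02% of all genes) and DESeq2 2 (5.36% of all genes). An unadjusted p under 0.05 with a lower level was reached by 3, beside 8.85% of all genes. Of the 12 genes for proteasome assembly and the alpha ring, 0 were positive, the median was -0.34 and edgeR called 0. An unadjusted p under 0.05 with a lower level was reached by 8, beside the same 8.85%. DESeq2 called 4, beside the same 5.36%. Alpha ring subunits Psma7, Psma1, Psma2 and Psma5 were at -0.43, -0.42, -0.39 and -0.37. The median over all tested genes was 0.03.

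Other loading genes were mostly below 0 as well. Of 10 listed, 9 were tested, 3 were positive, the median was -0.27, and edgeR called 1, beside 1.02% of all genes. At an unadjusted p under 0.05 by edgeR 5 were lower, beside 8.85% of all genes, and DESeq2 called 4, beside 5.36%. Calr, the chaperone calreticulin of the loading complex, fell to 516 ± 62.4 CPM in perfused livers, against 768 ± 145 CPM in unperfused livers (SD, n = 6). By group it was at 533 CPM in HOPE 1 h, 499 CPM in HMP 1 h, 859 CPM in SCS 4 h and 678 CPM in WI 30 min. For Calr the log2 difference was -0.57, with a standard error of 0.118 and an adjusted p of 0.0475 by edgeR. The 6 perfused livers were all below the 6 unperfused livers, which held for 2 of the 9 (Calr and Canx) and for 166 of all 13687 genes. The call on Calr held in 1 of the 12 fits that left out a liver. It was also lost with the replicate number as a block (edgeR adjusted p = 0.0687). Canx, the chaperone calnexin, was at -0.34, the general chaperone Hspa5 at -0.47 and the protease Ide at -0.30 (edgeR adjusted p = 0.127, 0.125 and 0.114).

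Class I heavy chains, the partners of B2m, were tested for 16 of 21 symbols. Of these 14 were positive in perfused livers, with a median of 0.30, and edgeR called 2, beside 1.02% of all genes. At an unadjusted p under 0.05 by edgeR 7 were higher, beside 8.82% of all genes, and DESeq2 called 4, beside 5.36%. RT1-S3 rose to 299 ± 55.7 CPM in perfused livers, against 153 ± 42.3 CPM in unperfused livers (SD, n = 6). By group RT1-S3 was at 279 CPM in HOPE 1 h, 318 CPM in HMP 1 h, 185 CPM in SCS 4 h and 120 CPM in WI 30 min. The HOPE 1 h and SCS 4 h livers overlapped. Its log2 difference was 1.00, with a standard error of 0.145 and an adjusted p of 0.0169 by edgeR, and it was called in 7 of the 12 fits that left out a liver. RT1-CE10, at 3.31 ± 0.278 CPM in perfused and 2.05 ± 1.15 CPM in unperfused livers (SD, n = 6), had 0.88 (adjusted p = 0.0450 by edgeR) and was called in 0 of the 12. Its group means were 3.45 CPM in HOPE 1 h, 3.17 CPM in HMP 1 h, 3.05 CPM in SCS 4 h and 1.05 CPM in WI 30 min, so the WI 30 min mean was the lowest and the SCS 4 h mean was near those of the perfused livers. The call on RT1-CE10 was also lost with the replicate number as a block (edgeR adjusted p = 0.0824). RT1-N3 was at 0.82 and RT1-T24-3 at 1.30 (edgeR adjusted p = 0.0709 and 0.0739). These genes are close copies of each other, and reads can be split between them, so the level of a single one is uncertain.

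Class II genes, which present peptides on macrophages, dendritic cells and B cells, were positive in 9 of 9 tested (12 listed) with a median of 0.70. EdgeR called 0 (1.02% of all genes) and DESeq2 0 (5.36% of all genes). An unadjusted p under 0.05 with a higher level was reached by 3, beside 8.82% of all genes. In HMP 1 h against WI 30 min the list was less alike, with 1 of the 9 at -3.35 and 8 positive. Their sum was highest in the livers with high cell markers. The 12 class II genes summed to 369 CPM in HOPE liver 3 and 771 CPM in HMP liver 1, against 128 to 264 CPM in the other 10 livers. RT1-Db1 was at 0.83 with all livers and at 0.06 with those 2 left out, and Ciita, the class II activator, at 0.69 and 0.11. The sum of the 9 class I pathway genes other than B2m was 141 to 193 CPM in HOPE 1 h (median 152 CPM), highest in HOPE liver 3. In HMP 1 h it was 213 to 216 CPM, with 214 CPM in HMP liver 1. It was 134 to 176 CPM in SCS 4 h and 123 to 143 CPM in WI 30 min.

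Of 16 genes listed as the interferon gamma axis, 15 were tested (all but Ifng) and 15 were positive, with a median of 0.49. EdgeR called 1, beside 1.02% of all genes. At an unadjusted p under 0.05 by edgeR 5 were higher, beside 8.82% of all genes, and DESeq2 called 2, beside 5.36%. Which interferon, if any, acted on these livers was not tested. Irf9, the DNA-binding part of the factor that reads the interferon-stimulated response element, rose to 28.3 ± 6.52 CPM in perfused livers, against 15.8 ± 2.23 CPM in unperfused livers (SD, n = 6). Irf9 had a log2 difference of 0.85, with a standard error of 0.149 and an adjusted p of 0.0321 by edgeR. The 6 perfused livers were all above the 6 unperfused livers, which held for 1 of the 15 and for 0.621% of all genes. The call on Irf9 held in 5 of the 12 fits that left out a liver. Gbp2, an interferon-induced GTPase, was at 1.27 and Irf8 at 0.63 (edgeR adjusted p = 0.126 and 0.224). With HMP liver 1 and HOPE liver 3 left out, Irf9 was at 0.78 (edgeR adjusted p = 0.0592), Gbp2 at 0.65 and Irf8 at 0.14.

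**Figure D5:**
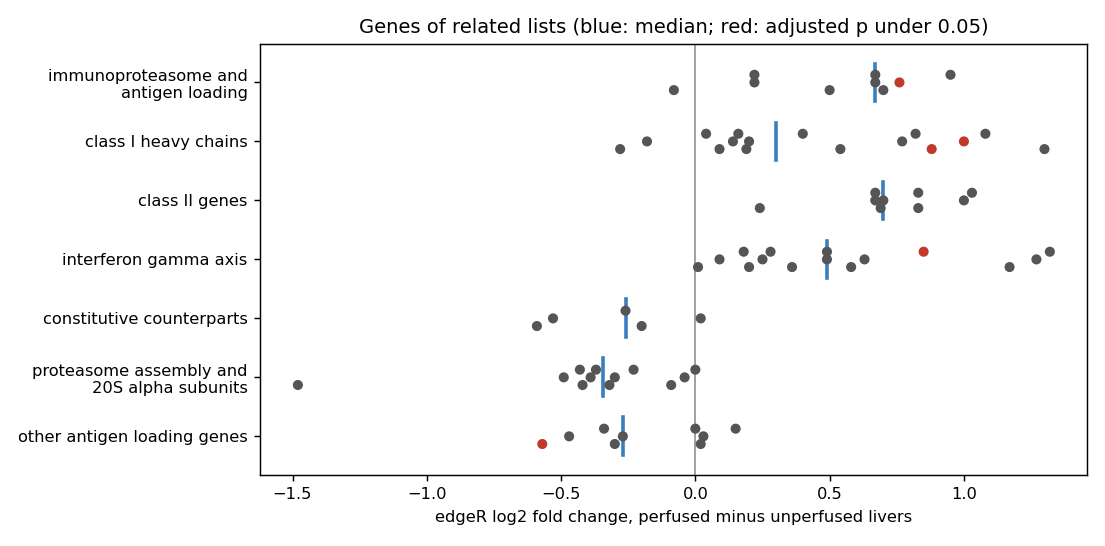
edgeR log2 fold change of perfused minus unperfused livers (x axis) for the genes of each list, 1 point per tested gene, with the median as a blue bar and called genes in red. The class I, class II and interferon gamma lists have medians of 0.30, 0.70 and 0.49, and the constitutive, assembly and other loading lists have medians of -0.26, -0.34 and -0.27.

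Outside these lists, the genes whose log2 CPM followed the mean of the 9 most closely over the 12 livers were Aspa (Pearson's r = 0.917), Ifitm3 and Rnf114 (both 0.906), Mov10 (0.900) and Flii (0.873). Filip1 (0.869), Gas6 (0.868), AC128848.1 and Ptpn1 (both 0.867) and Aacs (0.859) came next. The 12 points share 4 groups and their libraries, so these values describe likeness only.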

How the data were processed

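RNA-seq libraries of 12 rat livers (4 groups of 3) were read from 1 deposited table. The authors used Hisat2 for alignment and StringTie for assembly. Rnor_6.0 is the build in the submitters' processing notes. The authors deposited raw counts per gene and FPKM (counts relative to gene length and library size). The counting tool and strand setting were not given in the sources used here. Fold changes and p-values that the authors deposited were left aside. All 24 columns of values per liver were matched by name, and 0 were left unmatched. The labels number the livers, and the methods describe separate rats.

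Genes with low counts were removed with filterByExpr, leaving 13687 of 33744 (20213 had at least 1 count). Counts were TMM-normalized and fitted in 1 edgeR 4.0.16 quasi-likelihood model (R 4.3.3) with a mean per group (8 residual degrees of freedom), with Benjamini-Hochberg adjustment over all tested genes and a threshold of 0.05. CPM are counts scaled to TMM-adjusted totals, and log2 CPM used a prior count of 2. Perfused against unperfused is the mean of the HOPE 1 h and HMP 1 h means minus the mean of the SCS 4 h and WI 30 min means. Totals of 15262961 to 18343167 counts limit the precision of the genes with the fewest reads. Alternatives were DESeq2 1.42.0 (no independent filtering), RLE normalization, no filter, the compared groups alone, the replicate number as a block, leaving out livers, and Tap2 summed with its second gene (added after seeing the data). Named genes are the 10 members, up to 4 genes per related list (called first, then by the smallest p) and the 10 outside genes most like the members. RT1-S3, Irf9 and the other list genes come from this rule. 1 gene that the rule names is not reported here. The members and lists were chosen with earlier results of these data known. The fit was tested on simulated data. Promoters are from RefSeq (GRCr8), and 9 of 10 members matched by symbol.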

Additional observations from a re-analysis of the deposited data

Results flagged for a closer look

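Of 18 sets of 6 perfused or 6 unperfused livers, 1 for each of the 9 tested genes, 1 had a liver far from the rest. Tap2 was at 8.52 CPM in SCS liver 1, against 2.30 to 4.00 CPM in the other 5 unperfused livers, a gap of 0.726 of the whole range, above Dixon's limit for 6 values. Chance flags about 1 in 20 such sets.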

How the results depend on the processing

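Of 1132 alternative values of the genes' log2 fold changes, 1100 kept their direction and their side of the threshold, 12 lost a call, 14 gained one and 6 turned round. The 6 were uncalled. A change of sign was counted only where an uncalled value moved by more than 1 standard error. The 1100 therefore include 7 values near 0 with the other sign (4 for Psme2, and 1 each for Psmb9, Tap2 and Tapbp). These 7 leave out values that round to 0, and so all those of Tap1 in SCS 4 h against WI 30 min. Tap1 was at -0.00 there, and its alternatives ran from -0.21 to 0.17. In HOPE 1 h against SCS 4 h, leaving out 1 liver gave -0.28 to 0.30 for Psmb9 and -0.08 to 0.34 for Psmb10, with the lowest value without HOPE liver 3 (-0.28 and -0.08 also without both that liver and HMP liver 1), and -0.41 to 0.56 for Tap2. In SCS 4 h against WI 30 min it gave -0.09 to 0.87 for Tap2, and both Tap2 values that turned round were those without SCS liver 1. Of the members, DESeq2 called 7 in HMP 1 h against WI 30 min, 1 in HMP 1 h against SCS 4 h and 5 in perfused livers. Without HMP liver 1 and HOPE liver 3 these were 1 in the first by edgeR and 0 in perfused livers, where leaving out 1 liver gave 0 to 2 (2 without HOPE liver 2, Tap1 and Nlrc5). Of all genes, edgeR called 0 in each pair of groups and 140 in perfused livers. DESeq2 called 93 for HOPE 1 h against WI 30 min, 140 against SCS 4 h and 14 against HMP 1 h, 390 for HMP 1 h against WI 30 min and 433 against SCS 4 h, 15 for SCS 4 h against WI 30 min and 734 for perfused livers. Without a filter edgeR called 8 for HOPE 1 h against WI 30 min, 19 for HMP 1 h against WI 30 min, 19 against SCS 4 h, and 1 for SCS 4 h against WI 30 min. With only the groups compared, HOPE 1 h gave 2 against WI 30 min and 5 against SCS 4 h. Without HMP liver 1 and HOPE liver 3 it was 1 for HOPE 1 h against WI 30 min and 1 against SCS 4 h, 46 for HMP 1 h against WI 30 min and 22 against SCS 4 h, and 61 in perfused livers. Leaving out 1 liver gave 0 to 4 for HOPE 1 h against WI 30 min, 0 to 1 against SCS 4 h and 0 to 2 against HMP 1 h, 0 to 29 for HMP 1 h against WI 30 min and 0 to 36 against SCS 4 h, 0 to 1 for SCS 4 h against WI 30 min, and 0 to 166 in perfused livers. The cause of these changes was not tested.

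The labels do not say whether livers with the same replicate number were handled together. Deviations of same-numbered livers of different groups correlated from -0.189 to 0.143 (median 0.0334, 18 pairs, across genes). For livers with different numbers the range was -0.225 to 0.329 (median -0.00752, 36 pairs). These values cannot decide whether a number marks a shared batch. With the number as a block, edgeR called 1 gene for HOPE 1 h against WI 30 min, 1 for SCS 4 h against WI 30 min and 66 in perfused livers, and 1 member in perfused livers. Summed with its second gene, Tap2 was at 0.58 in perfused livers (standard error 0.237) and 1.31 in HMP 1 h against WI 30 min (standard error 0.337). With 3 livers per group, Tap2 and Nlrc5, at 38 to 188 and 45 to 181 counts per liver, had the largest standard errors of the 9 genes.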
